A study of Mus musculus with 6 samples.

Results

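The renin-angiotensin system genes described here are Ren1, Agt, Ace, Agtr1a, Enpep, Mme, Mas1 and Nr3c2. They were chosen by name from the gene symbols of the deposited matrices, and all 8 were found among 31053 genes. Their raw counts of unique molecular identifiers (UMIs, 1 per captured RNA molecule) were summed per library and cell class and are given as CPM, the count scaled to the total UMIs of that class in that library. The libraries are 10x Chromium single-nucleus libraries of kidney cortex from FVB/N mice, 3 controls with the genotype Klf4 fl/fl and 3 knockouts with the genotype Podocin-Cre Klf4 fl/fl. Both groups carry the floxed Klf4 alleles. The knockouts alone carry the Cre recombinase, driven by the podocin promoter, which is active in podocytes, so the deletion is aimed at podocytes. The sources used here give neither age nor sex. The labels also do not say whether each library came from a separate animal, so the p-values below measure the spread between these libraries.

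In this hormone system, renin from juxtaglomerular cells of the glomerular arteriole cuts angiotensinogen, the product of Agt, to angiotensin I. Angiotensin-converting enzyme (Ace) makes angiotensin II from it, which acts through the receptor encoded by Agtr1a, while aminopeptidase A (Enpep) and neprilysin (Mme) trim angiotensin peptides to shorter ones. Mas1 encodes a receptor for one of these shorter peptides, and Nr3c2 encodes the mineralocorticoid receptor, through which aldosterone, released in response to angiotensin II, raises sodium uptake in the distal nephron.

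After filtering, 54423 nuclei were kept, between 3741 and 18238 per library, with 7746712 to 48586161 UMIs per library. Control 1 and knockout 1 stood apart from the other 4 libraries. They held 16726 and 18238 nuclei against 3741 to 5771, and their median mitochondrial share was 2.54% and 1.09% of UMIs against 0.0845 to 0.163%. Pairs of libraries shared 5 to 132 cell barcodes, at most 1.39% of the smaller library. In all 6 libraries Y-linked RNA was present (Uty 278 to 381 CPM) and Xist was at most 1.42 CPM. Klf4 could not serve as a check of the labels, because podocytes held 1, 0 and 0 Klf4 UMIs in controls 1, 2 and 3, against 4, 0 and 1 in knockouts 1, 2 and 3, and the labels do not say which part of the gene is removed. Of the nuclei, 41130 fell in clusters that could be named from marker genes. Of the 17 named classes with at least 10 nuclei in every library, 16 were compared between the genotypes. The other, cycling nuclei (21 to 480 per library), a state rather than a type, was left out of the counts below, and tested by itself it gave 0 calls in 4 tests of these genes. Injured tubule nuclei (7 to 1951 per library) were below that minimum in 1 library, and thin limb and urothelial nuclei, which control 3 lacked, were not compared either.

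Mme was lower in every knockout library than in every control library in the 3 segments of the proximal tubule (log2 -1.44 to -2.05, SE 0.34 to 0.45), and Nr3c2 was so in 10 classes, among them the distal convoluted tubule and principal cells. Mas1 was higher in every knockout library in S1 and S2. None of these differences passed the adjusted threshold. With edgeR's quasi-likelihood test at a Benjamini-Hochberg adjusted p of 0.05, 0 of 52 tests of these genes in the 16 classes were called, beside 0.0383% of all 83501 tests. DESeq2 called 1 of the 45 tests to which it gave an adjusted p, beside 0.465% of all its tests. At an unadjusted p under 0.05 edgeR had 15 of the 52, or 28.8%, beside 6.72% of all tests. The knockout libraries all lay below the control libraries in 14 of the 52 tests, beside 5.36% of all tests, and all above them in 4 of the 52, beside 6.98%. Nr3c2 and Mme gave all 14 of the former. These tests come from the same 6 libraries and several classes, so they are not independent of each other. In all nuclei together edgeR called 0 of the 8 genes, beside 0.192% of all genes, and 2 of the 8 had an unadjusted p under 0.05.

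**Figure D1:**
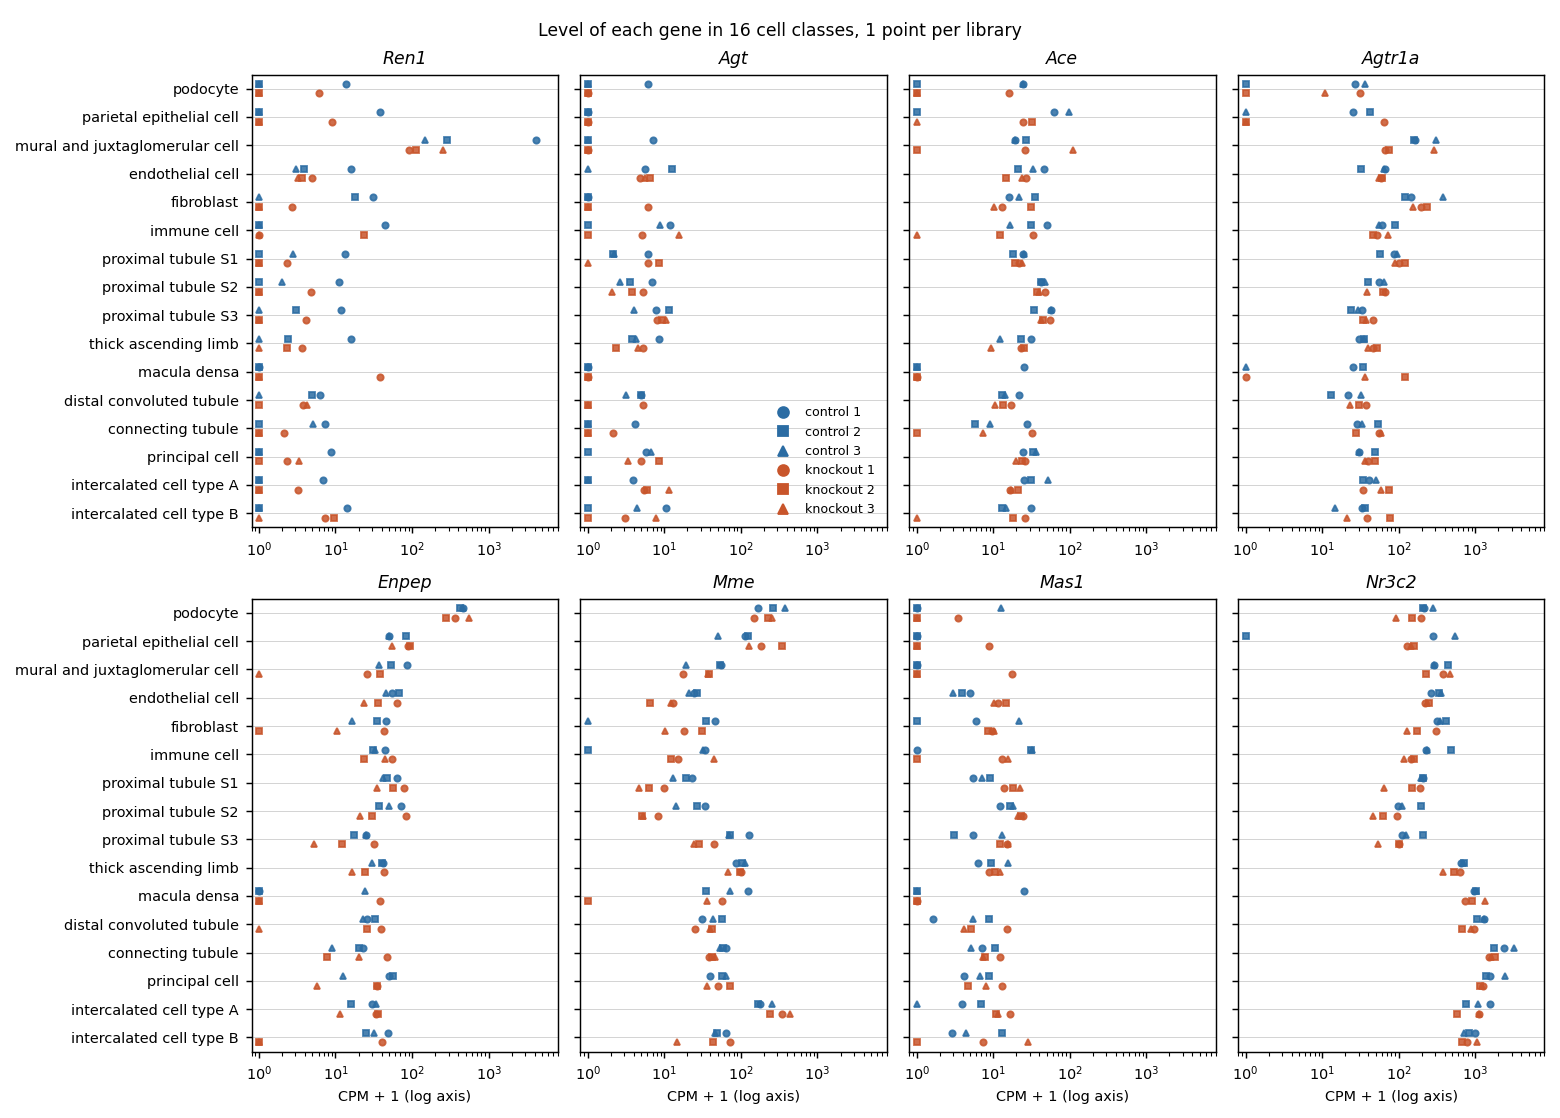
Level of each of the 8 genes (CPM + 1, log axis) in the 16 compared classes, 1 point per library, with controls in blue and knockouts in orange and the shape giving the library number. Ren1 is high in the mural and juxtaglomerular class, Enpep in podocytes, and Nr3c2 in the connecting tubule, principal cells and distal convoluted tubule.

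Ren1 (ENSMUSG00000070645, chr1:133350510-133360325, plus strand, mm10) was highest in a small class, of 12 to 53 nuclei per library, led by Ren1 and the smooth muscle gene Myh11, named mural and juxtaglomerular. Of the Ren1 UMIs, 680 lay in the class and 546 outside it in control 1, and 11 and 101 in knockout 1. In that class it read 4126, 287 and 145 CPM in controls 1, 2 and 3, against 90.7, 112 and 253 CPM in knockouts 1, 2 and 3. The groups overlapped, and control 1 alone was far above the rest. Behind these levels were 680, 11 and 8 UMIs for controls 1, 2 and 3 against 11, 3 and 7 for knockouts 1, 2 and 3. One nucleus of control 1 held 609 of them, 2.64% of its own 23105 UMIs and 42.8% of the 1423 Ren1 UMIs in all libraries. The fitted log2 change was -3.59 ± 1.17 (SE; edgeR adjusted p = 0.261). Without that nucleus it was -1.36 (adjusted p = 0.353), and the class then read 311 ± 179 CPM in controls and 151.8 ± 88.2 in knockouts (SD, n = 3 each; two-sided exact permutation p = 0.2, where the smallest possible is 0.1). In the fit without a filter on low counts the change of -3.79 was called (adjusted p = 1.07e-12), with that nucleus included. Leaving that nucleus out was chosen after its value was seen. Without the whole of control 1 the gene was below the filter and had no test.

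At least 1 Ren1 UMI was seen in 36.1%, 20% and 17.6% of the class's nuclei in controls 1, 2 and 3 and in 11.3%, 8.33% and 8.70% in knockouts 1, 2 and 3, from 12 to 53 nuclei per library. Median depths in the class were 2291, 1458 and 1317 UMIs per nucleus in controls 1, 2 and 3, against 1904, 1363 and 988 in knockouts 1, 2 and 3. The part of depth in these shares was not tested. Outside the class the shares were 3.09% in control 1, 0.539% in knockout 1 and 0.139 to 0.296% in the other 4 libraries, at median depths of 1091 to 2029 UMIs per nucleus. In control 1 these outside UMIs came as single molecules in 491 of 516 nuclei, and amounted to 11.3 CPM against 1.16 to 2.81 CPM in the other 5 libraries. Control 1, the library of the nucleus with 609 UMIs, also had the highest Ren1 level in S1, S2 and S3 of the proximal tubule, at 12.3, 10.0 and 11.0 CPM, and whether free RNA gave these UMIs was not tested. Nuclei with at least 5 Ren1 UMIs numbered 7, 1 and 0 in controls 1, 2 and 3, against 0, 0 and 2 in knockouts 1, 2 and 3. Of these 10 nuclei, 9 lay in the mural and juxtaglomerular class. Their share was 0.0229% ± 0.0212 in controls and 0.0116% ± 0.0200 in knockouts (SD, n = 3 each; two-sided exact permutation p = 0.7). A count of 0 allows up to 0.0594% in control 3, 0.0164% in knockout 1 and 0.0613% in knockout 2, and these limits cover counting error only. The number of renin-rich nuclei was too small in every library to show a difference. Some mouse strains carry a second, near-identical renin gene that is not among the deposited features, so reads of both copies may be counted as Ren1.

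**Figure D2:**
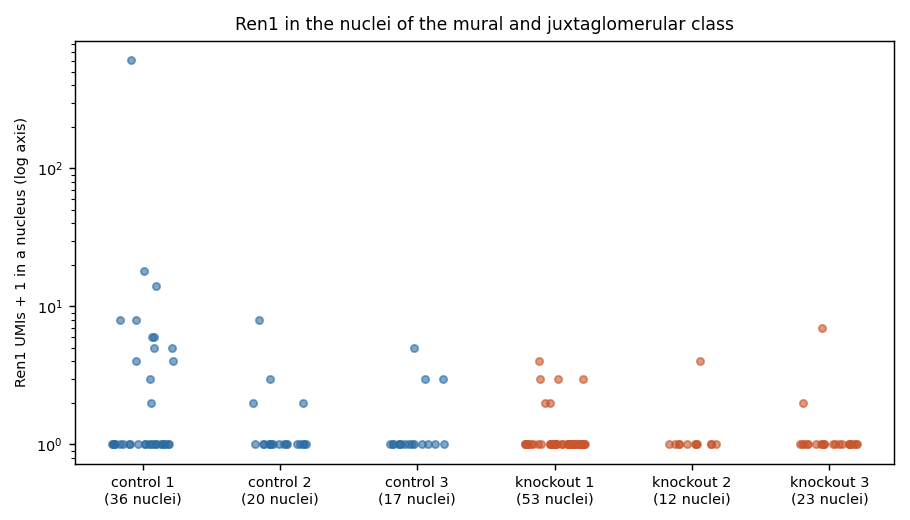
Ren1 UMIs + 1 (log axis) in each nucleus of the mural and juxtaglomerular class, by library, with controls in blue and knockouts in orange. One nucleus of control 1 holds 609 UMIs, and no other nucleus of the class has more than 17.

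The mural and juxtaglomerular class was named from marker lists that do not hold Ren1, with the mural cell list scoring highest. The levels of these lists are thus no independent check of the name. The summed level of 12 mural cell markers was 2399 to 3425 CPM in controls and 3357 to 6250 in knockouts, and that of 9 juxtaglomerular markers 1304 to 1794 and 1641 to 3649. The 9 juxtaglomerular markers also summed to 617 to 1184 CPM in fibroblasts and 558 to 1183 in podocytes of controls. No marker of either list was at 0 in the mural and juxtaglomerular class. Their part in the Ren1 levels was not tested.

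Agt (ENSMUSG00000031980, chr8:124556534-124569706, minus strand) is the substrate of renin, made mainly by the liver and in the kidney by the proximal tubule. Its reads were scarce, 530 UMIs over all libraries, and it passed the filter on low counts in no class. Among the 16 compared classes the highest control mean was in S3, at 6.73, 10.3 and 2.98 CPM in controls 1, 2 and 3 beside 7.10, 8.20 and 9.42 in knockouts 1, 2 and 3. The groups overlapped there. In S1 Agt read 5.14, 1.13 and 1.21 CPM in controls, against 5.11, 7.52 and 0 in knockouts, again with overlap. Podocytes held 2 Agt UMIs in controls and 0 in knockouts, and parietal epithelial and macula densa nuclei were at 0 UMIs. Over all nuclei the log2 change was 0.13 ± 0.46 (SE; edgeR adjusted p = 0.962).

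Ace (ENSMUSG00000020681, chr11:105967945-105989964, plus strand) encodes the converting enzyme, which sits on endothelium and on the brush border of the proximal tubule. Its highest control mean, 52.9 CPM, was in parietal epithelial cells on 0 to 5 UMIs per library, followed by S3 and S2. It was at 23.2, 17.0 and 24.1 CPM in S1, the first convoluted segment, of controls 1, 2 and 3, at 41.4, 40.8 and 47.1 in S2, and at 56.0, 33.1 and 55.0 in S3, the straight last segment. All 3 control libraries were higher in S3 than in S1, with a log2 ratio of S3 to S1 of 1.10 ± 0.164 in controls and 1.13 ± 0.278 in knockouts (SD, n = 3 each; two-sided exact permutation p = 0.9, adjusted p over 8 genes 1). The knockouts read 53.7, 44.1 and 41.1 CPM in S3, inside the control range. In endothelial nuclei Ace was 44.4, 20.0 and 32.1 CPM in controls, against 26.0, 13.5 and 22.7 in knockouts, a log2 change of -0.68 ± 0.38 (SE; edgeR adjusted p = 0.901). In type A intercalated cells, acid-secreting cells of the collecting system, it was 24.1, 30.1 and 50.3 CPM in controls, against 15.5, 19.7 and 15.9 in knockouts. Those groups did not overlap, but the knockouts held 3 to 7 UMIs each and the gene was below the filter (two-sided exact permutation p = 0.1, the smallest possible). The 11 proximal tubule markers, 9 with a lower mean in knockouts, summed in type A cells to 11967 to 13862 CPM in controls, against 8196 to 11425 in knockouts. Their part in this Ace level was not tested. An antisense gene, Gm11651, overlaps Ace, and the sources used here do not say whether counting took strand into account.

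Enpep (ENSMUSG00000028024, chr3:129269175-129332720, minus strand) encodes aminopeptidase A, an ectoenzyme of podocytes and of the proximal brush border that removes the first residue of angiotensin II. Its highest level was in podocytes, at 462, 426 and 464 CPM in controls 1, 2 and 3, against 363, 276 and 552 CPM in knockouts 1, 2 and 3. The control libraries lay close together, and the knockouts spread to both sides of them. The log2 change was -0.14 ± 0.28 (SE; edgeR adjusted p = 0.881), and its sign turned with doublets kept (0.10) or without knockout 2 (0.08). A difference of Enpep in podocytes, the cells in which Klf4 is targeted, was thus not shown. The next highest control means were 60.0 CPM in parietal epithelial cells, on 1 to 4 UMIs per library, and 57.8 in the mural and juxtaglomerular class.

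Because Enpep was highest in the cell type in which Klf4 is targeted, and the Klf4 protein is known to bind CACCC boxes, the 250 bases before its start are shown. They are from RefSeq's promoter table on GRCm38.p6, the same assembly as mm10, at chr3:129332750-129332999 on the minus strand, 5′ to 3′, with matches to CACCC or its reverse complement GGGTG in capitals.
Enpep: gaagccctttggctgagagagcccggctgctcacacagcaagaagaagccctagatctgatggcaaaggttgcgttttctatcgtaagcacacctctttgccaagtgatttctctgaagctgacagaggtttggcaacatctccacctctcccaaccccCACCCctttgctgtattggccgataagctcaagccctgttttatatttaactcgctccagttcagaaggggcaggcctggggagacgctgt
The window holds 1 match, and 52.0% of the 32851 windows of this length in the table hold at least 1. The match is a description of the letters and shows no binding.

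Along the proximal tubule Enpep was highest in S1 and S2. It read 62.5, 46.5 and 40.4 CPM in S1, 71.1, 35.7 and 48.4 in S2 and 23.7, 16.5 and 23.8 in S3 of controls 1, 2 and 3. Every control library was lower in S3 than in S1, opposite to Ace. In knockouts 1, 2 and 3 it read 76.5, 55.8 and 33.7 CPM in S1 and 31.3, 11.3 and 4.28 in S3. The log2 ratio of S3 to S1 was -1.18 ± 0.383 in controls and -2.06 ± 0.737 in knockouts (SD, n = 3 each; two-sided exact permutation p = 0.3, adjusted p = 1), and the groups overlapped because knockout 1 read -1.26. Enpep passed the filter in 7 classes, with a lower fitted level in 6, a median log2 change of -0.36 and adjusted p of at least 0.881. A processed pseudogene, Gm42628, lies within the gene.

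Mme (ENSMUSG00000027820, chr3:63241537-63386030, plus strand) encodes neprilysin, a metallopeptidase of podocytes and brush borders that makes angiotensin-(1-7) and degrades other peptides. In all 3 proximal segments every knockout library lay below every control library. In S3 Mme read 126, 70.3 and 68.4 CPM in controls 1, 2 and 3, against 44.0, 27.7 and 23.1 in knockouts 1, 2 and 3. The log2 change there was -1.50 ± 0.34 (SE; edgeR adjusted p = 0.335). In S2 it read 32.5, 25.5 and 12.98 CPM in controls, against 7.27, 4.14 and 4.25 in knockouts, with a log2 change of -2.05 ± 0.45 (edgeR adjusted p = 0.294). In S1 it read 21.7, 18.1 and 12.1 CPM in controls, against 8.89, 5.37 and 3.61 in knockouts, with a log2 change of -1.44 ± 0.41 (edgeR adjusted p = 0.461). Few UMIs lay behind the S1 and S2 levels of knockouts 2 and 3. The clusters of S2 held 2 and 1 Mme UMIs in knockout 2, and 2 and 2 in knockout 3. Those of S1 held 3 and 2 in knockout 2, and 3 and 0 in knockout 3.

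These differences in Mme missed the threshold in that fit and passed it in some others. In the 3 segments the deviations of same-numbered libraries correlated at 0.57 to 0.593 for the pair numbered 1, and at 0.205 to 0.273 for the other 2. In none of these segments did every library correlate best with that of its own number, so the pairing is weakly supported. In the paired fit with the replicate number as a block the S2 difference was called (log2 -2.15, edgeR adjusted p = 0.0399), while S3 was at 0.0506 and S1 at 0.103. That fit called 0.71% of all tests in the 16 classes. DESeq2 called the S3 difference (log2 -1.49, adjusted p = 0.0170), and without the filter on low counts edgeR called S2 (adjusted p = 0.0144) and S3 (0.0189), beside 0.43% of all tests in that fit. The same-numbered libraries differed by log2 -1.52, -1.34 and -1.57 in S3, of like size in the deep pair numbered 1 and in the other 2. The sign in each pair follows from the lack of overlap and adds nothing to it. With the pair numbered 1 left out the S3 change was -1.44 (adjusted p = 0.0816). Inside single clusters the groups did not overlap in 4 of 7 proximal clusters, namely 1 of S3, 1 of S1 and both of S2. In that S1 cluster and both of S2, knockouts 2 and 3 held only 1 to 3 Mme UMIs each. The share of all genes without overlap in a cluster was not computed. In that S3 cluster Mme read 150, 130 and 120 CPM in controls, against 56.7, 39.7 and 29.7 in knockouts, on 18 and 21 UMIs in knockouts 2 and 3. The groups overlapped in the other S1 cluster and the other 2 of S3, one of which read 96.4, 45.9 and 29.7 CPM in controls, against 30.9, 18.5 and 11.8 in knockouts.

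The segment gradient of Mme was not shown to differ between the genotypes. Its log2 ratio of S3 to S1 was 2.27 ± 0.322 in controls and 2.25 ± 0.121 in knockouts (SD, n = 3 each; two-sided exact permutation p = 0.9, adjusted p = 1), a difference of -0.02 on the log2 scale. Beside the lower Mme in S3, the summed level of 12 S3 markers was 22068 to 26098 CPM in controls and 23082 to 29438 in knockouts, with 3 of the 12 lower in knockouts and Slc22a13 at 0. The 14 injury markers summed to 84.7 to 217 CPM in controls and 137 to 323 in knockouts in S3, and all 14 had a higher mean in knockouts. The 8 type A intercalated markers, all with a lower mean in knockouts, summed to 14.9 to 32.2 and 5.99 to 14.2 CPM in S3. In S1, with all 8 lower, they summed to 18.1 to 37.4 CPM in controls, against 10.7 to 16.8 in knockouts. In S2, with 7 lower, they summed to 17.2 to 32.3 CPM in controls, against 8.28 to 17.8 in knockouts. The part of these in the Mme differences was not tested.

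The fitted level of Mme was lower in 9 of the 10 classes tested, so lower levels were not particular to the proximal tubule. In 4 of the 10, among them the 3 proximal segments, every knockout library lay below every control library. Type A intercalated cells were the only tested class with a higher fitted level. In type A intercalated cells it read 178, 165 and 251 CPM in controls 1, 2 and 3, against 346, 237 and 434 in knockouts 1, 2 and 3, a log2 change of 0.73 ± 0.27 (SE; edgeR adjusted p = 0.578). Control 3 overlapped with knockout 2. The 8 type A markers had a higher mean in knockouts in that class too, summing to 1058 to 1953 CPM in controls and 1742 to 2934 in knockouts (two-sided exact permutation p = 0.2), and their part in the Mme values was not tested. An edgeR fit over both classes, with the library as a block, gave a difference between the change in type A cells and that in S3 of 2.26 ± 0.35 on the log2 scale (SE; adjusted p = 0.0191), the only one called of 8486 genes, or 0.0118%. This fit was added after the data were seen and was 1 of 9 pairs of classes, and the other 8 gave no call for Mme. Without control 1 the difference was 1.69 (adjusted p = 0.276) and without knockout 3 it was 1.94 (adjusted p = 0.168). The call was lost in 7 of 11 alternatives, among them doublets kept (1.96, adjusted p = 0.0563), classes by the highest marker score (2.18, 0.262) and segments scored per nucleus (2.17, 1).

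Podocytes held the highest control mean of Mme, with 165, 264 and 371 CPM in controls, against 145, 228 and 251 in knockouts, a log2 change of -0.31 ± 0.35 (SE; edgeR adjusted p = 0.771). The groups overlapped widely, and the change was -0.01 without control 3, -0.02 without knockout 1 and -0.55 without control 1 (edgeR adjusted p of 0.996, 0.979 and 0.675), and 0.16 with doublets kept. In parietal epithelial cells, which line the capsule around the glomerulus, Mme read 110, 123 and 48.7 CPM in controls, against 182, 346 and 125 in knockouts. These groups did not overlap, on 1 to 9 UMIs per control library and 7 to 23 per knockout library, below the filter (two-sided exact permutation p = 0.1). The thick ascending limb had 84.4, 104 and 112 CPM in controls, against 99.2, 96.4 and 66.5 in knockouts (log2 -0.21 ± 0.22, edgeR adjusted p = 0.925). In endothelial nuclei Mme read 23.5, 25.7 and 20.0 CPM in controls, against 12.1, 5.41 and 11.4 in knockouts, without overlap and below the filter (two-sided exact permutation p = 0.1). The 8 type A intercalated markers, 7 with a lower mean in knockouts, summed there to 65.6 to 78.2 CPM in controls, against 21.6 to 25.4 in knockouts. The 11 podocyte markers, 8 lower, summed there to 1172 to 1612 CPM in controls, against 1345 to 1547 in knockouts. The part of these in the endothelial Mme level was not tested.

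**Figure D3:**
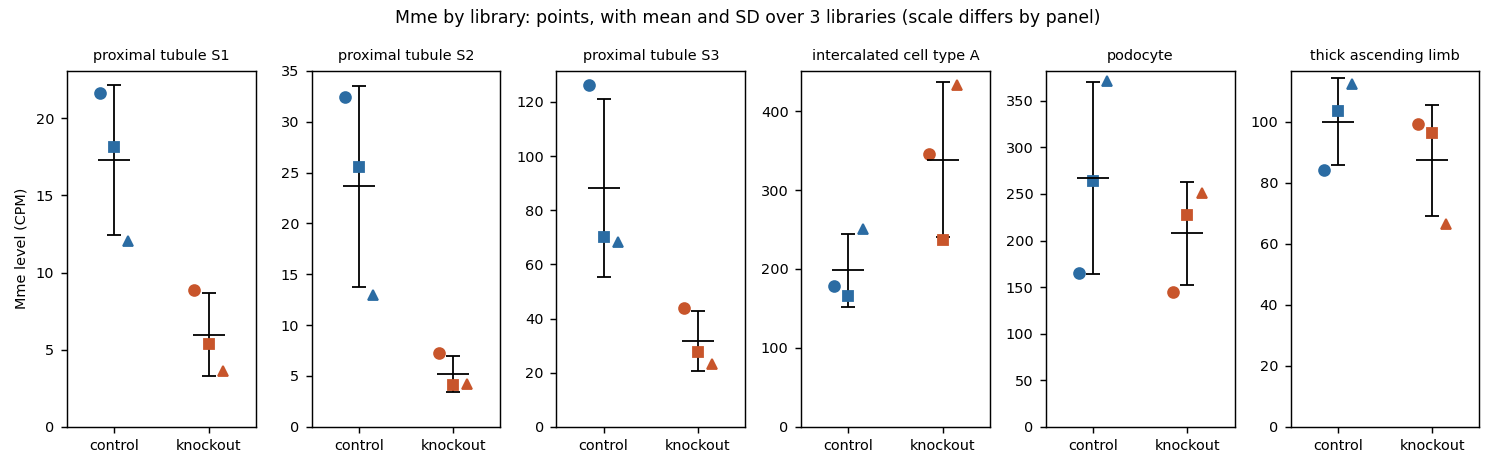
Mme level (CPM, linear axes that start at 0 and differ between panels) by library in 6 classes, with the mean and SD over 3 libraries as black lines. In S1, S2 and S3 every knockout point lies below every control point, while type A intercalated cells, podocytes and thick ascending limb overlap.

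Agtr1a (ENSMUSG00000049115, chr13:30336441-30382867, plus strand) encodes the main receptor of angiotensin II. Its highest levels were in fibroblasts, at 144, 120 and 372 CPM in controls 1, 2 and 3, against 196, 233 and 154 in knockouts 1, 2 and 3, and in the mural and juxtaglomerular class, at 164, 156.4 and 308 and 65.9, 74.6 and 289. Control 3 was the highest library in both classes, and the 2 class means in controls (212 ± 139 and 210 ± 85.5 CPM, SD, n = 3) were within their spread of each other. Next was S1, with 85.4, 55.5 and 92.9 CPM in controls, against 98.5, 119 and 87.8 in knockouts. The receptor declined along the proximal tubule in every library, with a log2 ratio of S3 to S1 of -1.44 ± 0.2198 in controls and -1.40 ± 0.377 in knockouts (SD, n = 3 each; two-sided exact permutation p = 1). Agtr1a passed the filter in 10 classes, with a higher fitted level in 8, a median log2 change of 0.31 and adjusted p of at least 0.794. In 2 of them, S3 and the thick ascending limb, every knockout library was above every control library (in S3, 32.2, 22.7 and 28.3 against 44.9, 32.8 and 36.0 CPM, log2 0.41 ± 0.25, edgeR adjusted p = 0.794). A sense intronic gene, Gm48161, lies within Agtr1a.

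Mas1 (ENSMUSG00000068037, chr17:12841079-12868143, minus strand) encodes the receptor for angiotensin-(1-7), whose actions oppose those of angiotensin II. It was low, with 1280 UMIs over all libraries, and passed the filter in 4 classes, with a higher fitted level in all 4. In S1 it read 4.52, 7.94 and 6.03 CPM in controls 1, 2 and 3, against 12.7, 17.2 and 21.6 in knockouts 1, 2 and 3. The groups did not overlap, and the log2 change was 1.48 ± 0.38 (SE; edgeR adjusted p = 0.432). In S2 it read 11.4, 15.3 and 16.9 CPM in controls, against 23.6, 22.1 and 20.2 in knockouts, again without overlap (log2 0.63 ± 0.29, edgeR adjusted p = 0.774). In S3 it read 4.39, 2.07 and 11.9 CPM in controls, against 14.2, 11.3 and 14.6 in knockouts, where control 3 overlapped with knockout 2 (log2 1.24 ± 0.50, edgeR adjusted p = 0.684). In S1, the same-numbered pairs differed by log2 1.49, 1.11 and 1.84, with a sign that follows from the lack of overlap.

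Mas1 overlaps Airn, a long antisense RNA, and without strand their reads cannot be told apart where the 2 genes overlap. In S1 Airn read 281, 159 and 252 CPM in controls, against 344, 132 and 106 in knockouts (log2 -0.28 ± 0.43, edgeR adjusted p = 0.920). In endothelial nuclei Mas1 read 3.92, 2.85 and 2.00 CPM in controls, against 10.5, 13.5 and 9.09 in knockouts, on 8 and 28 UMIs in all, below the filter and without overlap (two-sided exact permutation p = 0.1). In the thick ascending limb it read 5.30, 8.29 and 14.4 CPM in controls, against 7.88, 9.51 and 11.2 in knockouts (log2 0.14 ± 0.48, edgeR adjusted p = 0.993). Over all nuclei it was 6.22, 8.13 and 11.6 CPM in controls, against 13.8, 12.2 and 15.9 in knockouts (log2 0.65 ± 0.26, edgeR adjusted p = 0.462). A fit of the change in S1 against that in the thick ascending limb gave an adjusted p of 1, so the Mas1 difference was not shown to differ between them.

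Nr3c2 (ENSMUSG00000031618, chr8:76899442-77245012, plus strand) encodes the mineralocorticoid receptor, which acts with Hsd11b2 in the aldosterone-sensitive distal nephron. Its order of control means followed that site, with 2455 ± 757 CPM in the connecting tubule, 1805 ± 577 in principal cells and 1220 ± 142 in the distal convoluted tubule, then 1137 ± 412 in type A intercalated cells, 997 ± 44.1 in the macula densa and 840 ± 138 in type B intercalated cells (SD, n = 3 each). The thick ascending limb followed with 680 ± 31.8 CPM. The ranges of mean ± SD overlapped between all neighbours in this order. The lowest mean was 133 ± 52.8 CPM in S2. One unnamed cluster of 835 nuclei, led by Slc8a1 and Calb1, carried 1429 CPM.

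Nr3c2 was lower in knockouts in most classes, at a size that no class brought past the threshold. In the distal convoluted tubule it read 1285, 1057 and 1319 CPM in controls 1, 2 and 3, against 960, 667 and 882 in knockouts 1, 2 and 3 (log2 -0.59 ± 0.23, SE; edgeR adjusted p = 0.891). In principal cells it read 1558, 1392 and 2464 CPM and 1278, 1148 and 1214 (log2 -0.60 ± 0.24, edgeR adjusted p = 0.741). In neither class did the groups overlap. The connecting tubule had 2384, 1735 and 3245 CPM in controls, against 1528, 1814 and 1614 in knockouts, with control 2 among the knockouts (log2 -0.62 ± 0.27, edgeR adjusted p = 0.756). Control 3 was the highest library in all 3 of these classes, and without it the change was -0.31 in principal cells and -0.39 in the connecting tubule. Of 15 classes tested, 14 had a lower fitted level, 8 had an unadjusted p under 0.05 and 10 had every knockout library below every control library. The median log2 change over the classes was -0.59, and the smallest adjusted p was 0.569, in fibroblasts.

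Markers moved beside these Nr3c2 levels. In the distal convoluted tubule the 8 connecting tubule markers, all with a lower mean in knockouts and none at 0, summed to 6484 to 9213 CPM in controls, against 2227 to 4677 in knockouts. The 14 injury markers there summed to 99.0 to 222 CPM in controls, against 306 to 436 in knockouts. In principal cells the 9 markers of that type, 6 with a lower mean in knockouts, summed to 2049 to 3503 CPM in controls, against 2038 to 2358 in knockouts. The connecting tubule markers, 7 of 8 lower, summed there to 2124 to 4132 CPM in controls, against 1820 to 2698 in knockouts, and the injury markers to 31.6 to 192 against 136 to 328. In the connecting tubule its 8 markers, 3 with a lower mean in knockouts, summed to 14339 to 19242 CPM in controls, against 9458 to 29461 in knockouts, and the injury markers to 107 to 274 against 296 to 444. The part of these in the Nr3c2 differences was not tested.

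The 10 classes without overlap included the endothelial, immune, podocyte and S1 to S3 classes. In S3 the 8 connecting tubule markers, 5 with a lower mean in knockouts, summed to 351 to 481 CPM in controls, against 301 to 326 in knockouts. In endothelial nuclei, with 7 lower, they summed to 688 to 1116 against 507 to 845. In S1, with 6 lower, they summed to 515 to 653 against 434 to 626. In fibroblasts the sum was higher in knockouts, 805 to 850 against 949 to 1611. The part of these in the Nr3c2 levels was not tested. Immune nuclei showed the largest fitted difference of Nr3c2, with 230, 478 and 235 CPM in controls, against 145, 158 and 115 in knockouts (log2 -0.998 ± 0.310, edgeR adjusted p = 0.751), on 8 to 72 UMIs per library. Control 2, the highest, held 15 immune nuclei. In this class the 8 connecting tubule markers, 7 with a lower mean in knockouts, summed to 924, 4092 and 1058 CPM in controls 1, 2 and 3. In knockouts 1, 2 and 3 they summed to 783, 847 and 1110 CPM, and their part in the Nr3c2 level was not tested. Podocytes read 211, 206 and 278 CPM in controls, against 195, 146 and 90.3 in knockouts (log2 -0.55 ± 0.34, edgeR adjusted p = 0.609). Among podocytes the 9 principal cell markers, 7 with a lower mean in knockouts, summed to 487 to 764 CPM in controls, against 120 to 543 in knockouts. Their part in the podocyte Nr3c2 level was not tested. Type B intercalated cells (log2 -0.04 ± 0.26), macula densa (-0.02 ± 0.32) and the mural and juxtaglomerular class (0.17 ± 0.32) lay near 0. In all nuclei Nr3c2 read 368, 514 and 422 CPM in controls, against 338, 307 and 304 in knockouts (log2 -0.51 ± 0.14, edgeR adjusted p = 0.249), where fewer nuclei of a type and less RNA per nucleus cannot be told apart. The difference was small in the pair numbered 1, the libraries with the most nuclei and the highest mitochondrial share. There the knockout to control log2 ratio over all nuclei was -0.12, against -0.74 and -0.47 in the pairs numbered 2 and 3, and in S2 it was -0.05 against -1.68 and -1.27. In the distal convoluted tubule the 3 ratios were close, at -0.42, -0.67 and -0.58. Connecting tubule nuclei, the class with the highest Nr3c2, numbered 271, 176 and 225 of 16726, 3741 and 5052 nuclei in controls 1, 2 and 3. In knockouts 1, 2 and 3 they numbered 475, 122 and 120 of 18238, 4895 and 5771. Their part in the ratios over all nuclei was not tested.

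**Figure D4:**
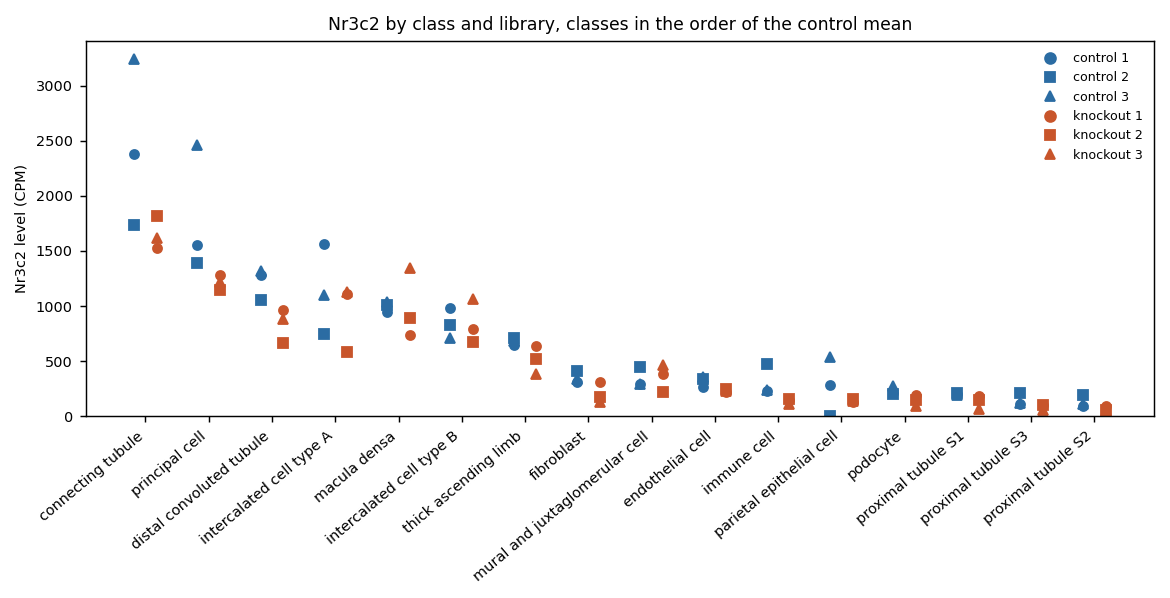
Nr3c2 level (CPM, linear axis) in 16 classes in the order of the control mean, 1 point per library. Knockout points (orange) lie below the control points (blue) without overlap in 10 classes, among them the distal convoluted tubule (1057 to 1319 CPM in controls, 667 to 960 in knockouts).

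**Figure D5:**
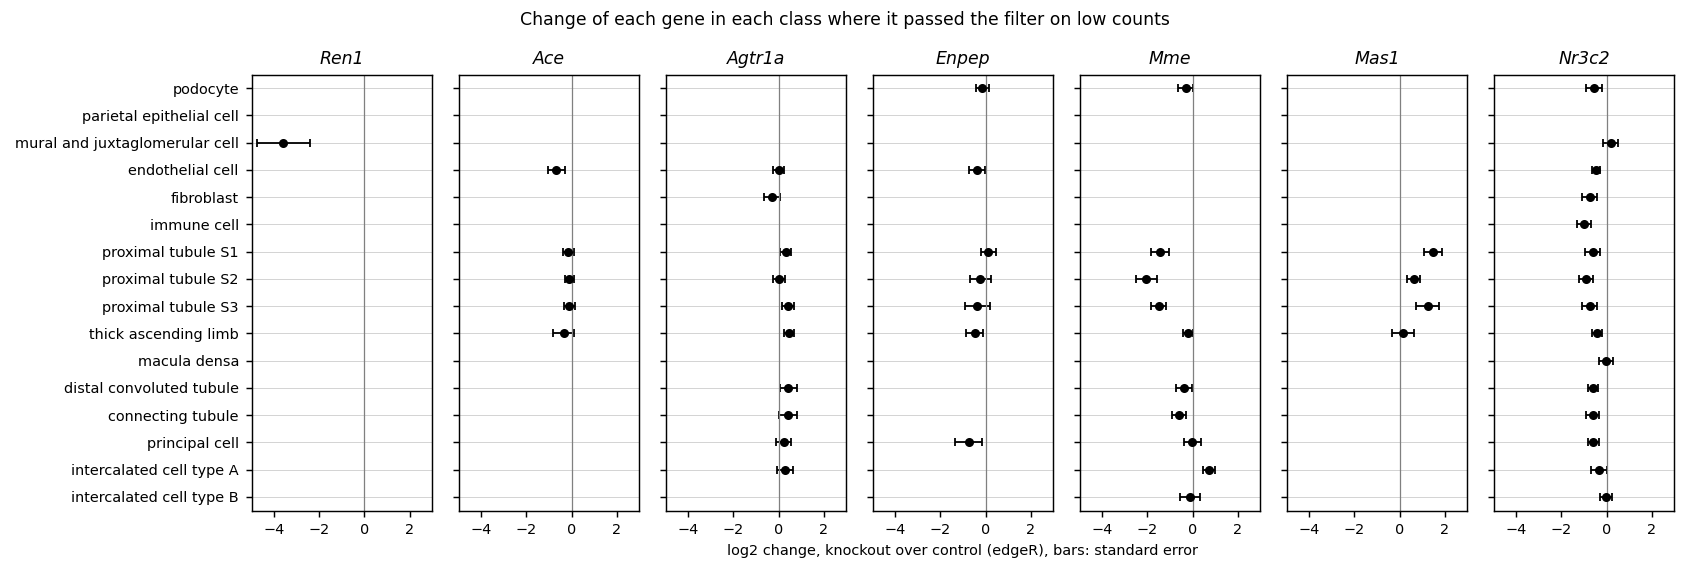
Fitted log2 change, knockout over control, with its standard error, for each gene in each class where it passed the filter on low counts (Agt passed in none). Nr3c2 lies left of 0 in 14 of 15 classes, Mme left of 0 in 9 of 10 and Mas1 right of 0 in all 4, and none of the 52 passed the adjusted threshold in edgeR.

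In injured tubule nuclei, nearly all from knockouts (99, 7 and 22 nuclei in controls, 1951, 492 and 338 in knockouts), the knockouts read 46.1, 33.7 and 35.6 CPM of Enpep, 27.3, 37.7 and 45.8 of Mme and 136, 127 and 93.2 of Nr3c2. The controls had 0 to 12 Mme UMIs per library in this class and were not compared.

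Of 65 other genes of the system, in 4 lists, edgeR called 0 of 468 tests in the 16 classes, higher or lower, with 42 (8.97%, beside 6.72% of all tests) at an unadjusted p under 0.05, and DESeq2 called 2, beside 0.465% of all its tests. The lists were drawn up with earlier results of these data known. The 16 other angiotensin peptidases and carriers gave 1 of 96 tests at an unadjusted p under 0.05, with a median log2 change of -0.15 beside -0.01 for all genes tested. Within it, Lnpep, an aminopeptidase that binds angiotensin IV, read 201, 250 and 150.8 CPM in podocytes of controls and 210, 455 and 562 in knockouts (log2 0.98 ± 0.37, edgeR adjusted p = 0.435).

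The 10 other receptors and partners had 3 of 45 tests at an unadjusted p under 0.05 (median log2 -0.11). Igf2r, a receptor that can take up renin, read 63.5, 116 and 84.8 CPM in S3 of controls and 53.4, 52.3 and 34.2 in knockouts (log2 -0.85 ± 0.27, edgeR adjusted p = 0.529). Lrp2, the megalin receptor of the brush border that takes up angiotensinogen, read 1266, 1350 and 1279 CPM in endothelial nuclei of controls and 1105, 1926 and 2554 in knockouts (log2 0.48 ± 0.29, edgeR adjusted p = 0.901). The 11 proximal tubule markers, Lrp2 among them, summed to 11475 to 22150 CPM in endothelial nuclei of controls and 13293 to 14917 in knockouts. Of these, 8 had a lower mean in knockouts. Whether RNA of the proximal tubule gave this Lrp2 was not tested. The 21 genes of renin release and the macula densa had 6 of 138 (median -0.12). Vdr, the vitamin D receptor, a repressor of renin, read 144, 294 and 209 CPM in podocytes of controls and 115, 32.5 and 40.1 in knockouts without overlap (log2 -1.29 ± 0.46, edgeR adjusted p = 0.399). Without knockout 1, where 0.556% of all tests in the 16 classes were called, both podocyte differences were called by edgeR, with a log2 change of -2.37 for Vdr (adjusted p = 0.00904) and 1.36 for Lnpep (adjusted p = 0.00666). In podocytes the 11 proximal tubule markers, 10 with a lower mean in knockouts, summed to 14779, 6549 and 6240 CPM in controls 1, 2 and 3. In knockouts 1, 2 and 3 they summed to 8013, 2146 and 2858 CPM. The part of such tubule RNA in the podocyte Vdr level was not tested. Cacna1c, a calcium channel subunit, read 5.85, 12.8 and 7.14 CPM in S2 of controls and 16.2, 13.8 and 12.8 in knockouts (log2 0.96 ± 0.38, edgeR adjusted p = 0.722).

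The 18 partners and targets of the mineralocorticoid receptor had 32 of 189 tests at an unadjusted p under 0.05, or 16.9% beside 6.72% of all tests, with a median log2 change of -0.14. Zbtb16, a zinc finger transcription factor induced by steroid hormones, read 8.28, 12.8 and 11.4 CPM in S2 of controls 1, 2 and 3, against 27.9, 44.2 and 37.2 in knockouts 1, 2 and 3 (log2 1.80 ± 0.31, edgeR adjusted p = 0.199). Its groups did not overlap, and DESeq2 called it in S2 (adjusted p = 0.0136) and in the connecting tubule (log2 2.46, adjusted p = 0.00477). Tfcp2l1, a transcription factor of the distal nephron, read 370, 574 and 435 CPM in the mural and juxtaglomerular class of controls and 181, 149 and 289 in knockouts (log2 -1.12 ± 0.32, edgeR adjusted p = 0.225). In that class the 8 type A intercalated markers, 6 lower in knockouts and Slc26a7 and Dmrt2 at 0, summed to 52.1 to 164 CPM in controls, against 0 to 36.1 in knockouts. The 9 principal cell markers, 6 lower and Fxyd4 and Avpr2 at 0, summed to 813 to 1930 CPM in controls, against 470 to 890 in knockouts. Their part in the Tfcp2l1 level was not tested. With the replicate number as a block, which pairs same-numbered libraries, 10 of the 468 tests of these lists were called, beside 0.71% of all tests in that fit. Without both libraries numbered 1, 11 tests of the lists were called, beside 0.597% of all tests. Among the 10 were higher levels of Zbtb16 in S2 (log2 1.72, edgeR adjusted p = 0.0331) and the connecting tubule (2.08, 0.00692) and of Fkbp5, a steroid-induced chaperone, in the connecting tubule (0.85, 0.0388), principal cells (1.18, 0.0107) and endothelial nuclei (0.93, 0.0145). Lower levels were called for Slc12a3, the thiazide-sensitive cotransporter, in the connecting tubule (-1.14, 0.0101), and for Klk1 in S2 (-1.60, 0.0460). The deviations of same-numbered libraries correlated at 0.0840 to 0.412 in the connecting tubule, so the pairing did not hold in that class. Fkbp5, Slc12a3 and Klk1 are named because of these calls, after their values were seen.

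The patterns of the members over the 16 classes were compared with those of other genes as a description, by Pearson's r of the log2 control means. Enpep was most like Clic5 (r = 0.949), Otud7b and Slain2, each highest in podocytes. Nr3c2 was most like Grhl2 (0.956), Defb1 and Cdkl1, which were highest in principal cells, the distal convoluted tubule and the connecting tubule. Ren1 was most like Pgf (0.932), Dgkb and Rgs7bp, and Agtr1a was like Pi15 (0.832) and Ecm1 (0.831). Mme was most like Ctnnal1 (0.787), Tsen15 and Plagl1, a weaker likeness than for the other genes. Ace was most like Ralgps2 (0.904), Arhgap1 and Dglucy, and Mas1, low everywhere, like Fam213b (0.914), Oaz1 and Snrpa1. The 16 points of each comparison share the 3 control libraries.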

How the data were processed

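The authors deposited raw UMI counts, 1 matrix per library. Cell Ranger 3.1.0 made these, per the file headers; the build was mm10, per the submitters' processing notes, which also name Seurat without its role. No other columns were used. Barcodes needed 300 or more genes and no more than 5% mitochondrial UMIs. Scrublet (scanpy 1.11.5) called 0 to 6 doublets per library by itself, so the barcodes with the highest scores were removed at a rate that grows with the library's barcodes (104 to 3831 per library). Nuclei were clustered (Leiden, igraph 0.11.9, 3000 variable genes centred per library) without the 8 genes, and clusters were named from marker genes on at least 3 raised markers; 15 of 54 clusters stayed unnamed or mixed. The names are rebuilt and each stands for a class like that type; thresholds for names were set after the clusters were seen. Summed counts were compared with edgeR 4.0.16 (quasi-likelihood, TMM, filter by group, R 4.3.3), adjusted over all genes of a class, with DESeq2 1.42.0 as an alternative. The rule for comparing a class was 10 nuclei in every library; cycling nuclei met it and were left out after they were seen, and their test was added as an alternative. CPM is relative to all UMIs that a library has in a class.

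The test was tested on simulated data. It recovered 25.3% of 2-fold changes in podocytes and 18.3% in S3, so such changes were mostly missed. Of 4-fold changes it recovered 93% and 83.9%, with 4 and 8 false calls. The fit of S3 against type A intercalated cells recovered 33.7% of 4-fold changes, with 7 false calls. Replicate numbers are from the labels. The deviations from group means of same-numbered libraries correlated at 0.648, 0.372 and 0.314 over all nuclei and above 0.1 for every pair in 9 of the 16 classes, the 3 proximal segments among them, so the numbers were taken to pair the libraries there. Over all nuclei and in the 3 proximal segments, however, not every library correlated best with that of its own number. The pairing there rests on the limit of 0.1 alone. The 8 genes are named in every class. From each list, genes past the threshold or else the 2 with the smallest p are named, and for likeness the 3 genes with the highest r, among genes of at least 20 CPM; some genes that this rule or a call would name are not reported here. Gene positions are from GENCODE M21 on mm10. The genes and lists were chosen with earlier results of these data known. Alternatives tried were other scaling, filter, doublet, mitochondrial and class settings, each library left out, the pair numbered 1 left out, and the replicate block. Exact permutation tests used 20 assignments. Intervals and limits for shares cover counting error only.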

Additional observations from a re-analysis of the deposited data

Results flagged for a closer look

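The change of Mme was called as different between 2 cell classes, in a test that was added after the data were seen and was 1 of 9 pairs of classes. The call was lost in 7 of 11 alternatives. In type A intercalated cells the log2 change minus that in S3 was 2.26 ± 0.35 (SE; edgeR adjusted p = 0.0191 in a fit with the library as a block). Within each library the log2 of Mme CPM in type A cells over that in S3 was 0.50, 1.24 and 1.88 for controls 1, 2 and 3, against 2.97, 3.098 and 4.23 for knockouts 1, 2 and 3. The groups did not overlap (two-sided exact permutation p = 0.1, the smallest possible).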

How the results depend on the processing

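Calls of the 8 genes rose from 0 to 1 with DESeq2 (Mme in S3), 3 without the filter on low counts (Ren1 in the mural and juxtaglomerular class, Mme in S2 and S3) and 1 with the replicate block (Mme in S2), and stayed at 0 under the other alternatives, cycling nuclei included. The replicate block changed no other call of the 8 genes. For the other genes of the system the 0 calls became 2 with DESeq2, 10 without the filter, 10 with the replicate block, 11 without both libraries numbered 1, and 0 to 9 with 1 library left out (9 without knockout 1, in podocytes and parietal epithelial cells). Of 20 log2 changes followed through the alternatives, 18 kept their direction in all; Enpep in podocytes turned to 0.10 with doublets kept and 0.079 without knockout 2 (-0.386 to 0.079 with 1 library left out), and Mme in podocytes to 0.16 with doublets kept. The share of nuclei with at least 5 Ren1 UMIs turned from a knockout minus control difference of -0.0113 to 0.00396 percentage points without both libraries numbered 1, and lay at -0.0229 to -0.00181 with 1 library left out.

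The Mme difference between type A cells and S3 (2.26) ranged from 1.69 to 2.60 with 1 library left out and lost its call without control 1 or knockout 3, without both libraries numbered 1 (2.05, adjusted p = 0.278), with doublets kept (1.96, 0.0563), segments scored per nucleus (2.17, 1), a mitochondrial limit of 1% (1.89, 0.363) and classes by the highest score (2.18, 0.262). Differences in the S3 to S1 ratio were near 0 and turned sign: with 1 library left out they ranged from -0.46 to 1.10 for Ren1, -0.94 to 0.71 for Agt, -0.081 to 0.18 for Ace, -0.11 to 0.25 for Agtr1a, -0.20 to 0.10 for Mme, -0.74 to 0.47 for Mas1 and -0.24 to 0.20 for Nr3c2. Without both libraries numbered 1 they were -0.063 for Ren1, -0.015 for Ace, -0.080 for Agtr1a and 0.13 for Mme, and with segments scored per nucleus -0.032 for Agt, -0.12 for Ace and -0.23 for Agtr1a. The cause was not tested. Ren1, Agt and Mas1 rest on few UMIs, 1423, 530 and 1280 over all libraries. Mme in S1 and S2 rests on few UMIs in knockouts 2 and 3, at most 3 in any cluster. Ren1 in its class was below the filter, and not tested, without control 1, without both libraries numbered 1 and at the mitochondrial limit of 1%, and fibroblasts were not found as a class with doublets kept.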
